A study of Mus musculus with 9 samples.

Results

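C1498 is a transplantable mouse leukaemia line that is used as a model of acute myeloid leukaemia and that has also been described as a tumour with features of natural killer T cells. The cells described here carried the negative control construct (Scr) of a lentiviral short hairpin RNA experiment, together with green fluorescent protein (GFP), and the GFP+ cells were isolated before RNA was extracted. They were grown in DMEM with fetal bovine serum, outside an animal. The members are the 3 arrays titled SCR #7, SCR #8 and SCR #9, out of 9 arrays in the series. The remaining arrays came from cells with hairpins against Zeb1 and were left out, so the text describes 1 group and makes no contrast. Scr cells were themselves infected and selected for GFP, and the untouched parental line was not analysed here. Whether the arrays came from separate cultures is not stated in the labels, so the spread between them may be technical. With 1 group there is no test and no p-value, and the number of arrays limits the precision.

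Each value is an RMA signal on the log2 scale, where a step of 1 is a 2-fold change of signal. Values of a gene are given in the order of replicates 7, 8 and 9, and means carry the SD of these 3 arrays (n = 3). The probe sets of different genes bind with different strength, so the order of genes below is an order of array signals and not of transcript numbers. No detection calls accompany the values, so the array floor was taken from 1460 genes for olfactory, vomeronasal, trace amine and bitter taste receptors, which leukocytes largely lack. Their median signal was 5.62, and their percentile 99, called the receptor reference below, was 8.09, 7.80 and 7.73 on the 3 arrays. Of 19505 genes, 7517 lay above the reference on each of the 3 arrays (38.5%), 1075 on 1 or 2 and 10913 on none. The receptors themselves passed in 10 cases (0.685%). A gene at or under the reference may still be transcribed at a level that this array does not separate from its floor.

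**Figure D1:**
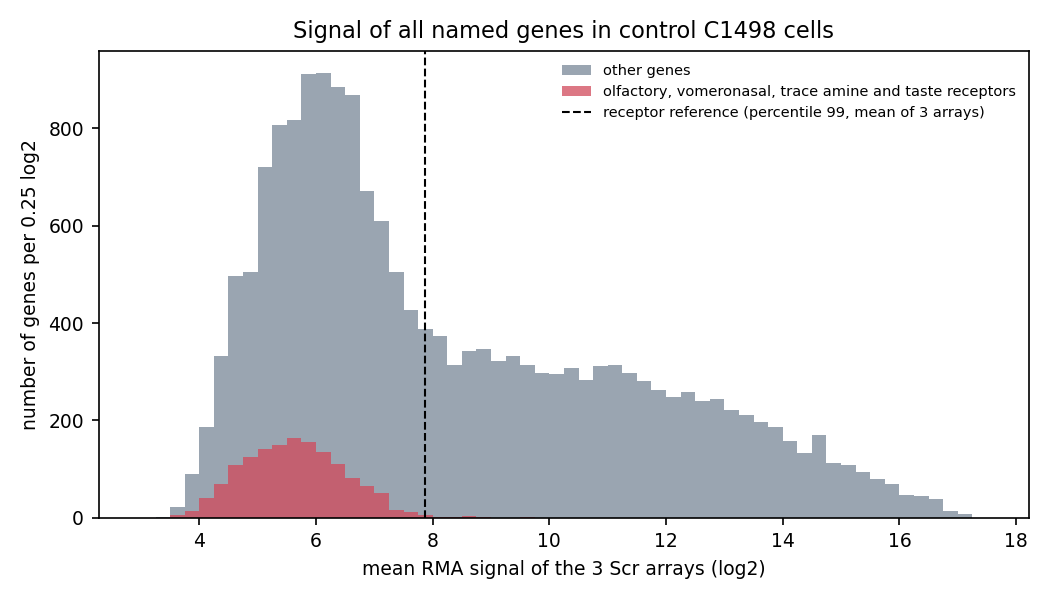
Number of genes (y axis) by mean RMA signal of the 3 Scr arrays in bins of 0.25 log2 (x axis), for the 1460 chemosensory receptors and for all other genes, with the mean receptor reference of 7.87 as a dashed line. The receptors form a single peak around 5.62, under the lower peak of the other genes, whose long upper part runs to 17.23.

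Replicate 8 stood apart from the other two arrays. Pearson's r across probe sets, a description of similarity, was 0.994 between replicates 7 and 9, 0.984 between 7 and 8 and 0.986 between 8 and 9. Among 8088 genes whose mean lay above the mean reference, 1631 (20.2%) spanned more than 1 log2 step between arrays. Replicate 8 was the farthest of the 3 in 1329 of them (81.5%), highest in 620 and lowest in 709, and without it 135 genes spanned that much. The widest span belonged to Jund, an AP-1 subunit, at 13.34, 9.47 and 12.56. Rgs2, a regulator of G protein signalling, followed in the opposite direction at 7.59, 11.39 and 9.31. Without replicate 8, 7671 genes passed the reference. What sets this array apart was not tested, and list counts that change without it are given beside the counts.

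T lymphocytes read antigen through a receptor whose signal leaves the cell membrane by way of the CD3 chains, the kinases Lck and Zap70 and the adaptor Lat. Myeloid cells use other sets: granule enzymes such as myeloperoxidase, colony-stimulating factor receptors, and the transcription factors PU.1 and C/EBP. These marker sets are what separates the lineages in normal blood.

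The 3 CD3 chains were far above the receptor reference in Scr cells. Cd3g, the CD3 gamma chain, gave 15.59, 15.49 and 15.50. Cd3e, the epsilon chain, gave 14.79, 13.85 and 15.32, and Cd3d, the delta chain, gave 11.45, 12.74 and 12.45. These chains carry the receptor signal into the cell. Cd3g was nearly level across the arrays, while Cd3e was lowest and Cd3d highest on replicate 8. None of the 1460 chemosensory receptors had a mean as high as any of these chains. The T cell receptor constant regions and Lck were not analysed here.

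The windows at the starts of these genes are shown because the CD3 chains carry the lineage description, next to those of Fcgr3 and Mpo, myeloid genes above and under the reference. They are RefSeq sequences of build GRCm38.p6, 250 bases before to 50 after the start, 5′ to 3′ on the strand of the gene, with matches to CACCTG on either strand in capitals. CACCTG, read CAGGTG on the other strand, is an E-box bound by Zeb1, the target of the study, and by E proteins such as Tcf3 and Tcf12. Cd3g is at chr9:44980382-44980681 (- strand), Cd3d at chr9:44981536-44981835 (+), Cd3e at chr9:45009562-45009861 (-), Fcgr3 at chr1:171059354-171059653 (-; the first of 2 starts listed) and Mpo at chr11:87793534-87793833 (+).
Cd3g: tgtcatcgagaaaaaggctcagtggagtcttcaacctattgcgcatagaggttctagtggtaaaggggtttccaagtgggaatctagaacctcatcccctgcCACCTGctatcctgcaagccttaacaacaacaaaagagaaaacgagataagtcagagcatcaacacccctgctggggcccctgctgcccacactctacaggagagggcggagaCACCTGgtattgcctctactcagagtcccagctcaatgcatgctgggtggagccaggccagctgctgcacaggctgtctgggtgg
Cd3d: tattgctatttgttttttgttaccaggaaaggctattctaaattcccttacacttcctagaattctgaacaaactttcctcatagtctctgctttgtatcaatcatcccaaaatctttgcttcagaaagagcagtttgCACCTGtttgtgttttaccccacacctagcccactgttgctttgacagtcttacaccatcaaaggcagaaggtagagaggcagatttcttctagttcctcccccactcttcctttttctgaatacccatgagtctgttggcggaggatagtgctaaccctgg
Cd3e: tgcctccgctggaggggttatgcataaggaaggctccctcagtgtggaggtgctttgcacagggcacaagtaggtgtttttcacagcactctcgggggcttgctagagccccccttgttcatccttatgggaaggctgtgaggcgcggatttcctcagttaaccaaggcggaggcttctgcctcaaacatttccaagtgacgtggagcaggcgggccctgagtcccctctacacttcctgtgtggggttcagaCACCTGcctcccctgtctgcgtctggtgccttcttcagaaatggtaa
Fcgr3: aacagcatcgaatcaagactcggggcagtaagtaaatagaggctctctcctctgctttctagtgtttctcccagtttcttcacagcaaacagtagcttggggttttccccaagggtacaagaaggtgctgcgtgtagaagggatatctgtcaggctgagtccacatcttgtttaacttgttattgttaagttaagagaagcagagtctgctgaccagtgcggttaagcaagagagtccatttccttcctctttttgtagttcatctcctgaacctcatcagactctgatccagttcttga
Mpo: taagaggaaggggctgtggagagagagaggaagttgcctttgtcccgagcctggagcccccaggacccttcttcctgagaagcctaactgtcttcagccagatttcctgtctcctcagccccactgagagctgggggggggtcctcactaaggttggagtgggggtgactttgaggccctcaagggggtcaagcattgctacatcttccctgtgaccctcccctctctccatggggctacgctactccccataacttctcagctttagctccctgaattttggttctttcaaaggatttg
The Cd3g window held 2 matches, those of Cd3d and Cd3e held 1 each, and those of Fcgr3 and Mpo held 0. Of 15691 measured genes with a listed window, 19.3% held at least 1 match, and the share was 16.0% for genes above the reference on 3 arrays and 21.7% for genes above it on none. Of the 9 T cell genes above the reference, 7 had a window, and 4 of these held a match: the CD3 genes and Zap70. Of the 9 T cell genes above the reference on no array, 5 had a window, and 2 of these held a match. For the 34 granulocyte and monocyte genes above it on no array, 26 had a window. Of these windows 4 held a match (15.4%), so the 2 myeloid windows shown do not stand for the list. A match is a run of letters and no evidence that a factor binds. Of the other motifs searched on both strands, none of which contains another, CCGGAAG, the core of many ETS sites, stood in 12.2% of all windows, in 22.3% of windows of genes above the reference and 4.68% of those above it on no array, and TATAAA in 13.1% of all windows, 6.91% and 18.2%. The Runx motif TGTGGT stood in 14.4% of all windows, 12.3% and 16.0%. These windows also differed in base composition, with a median of 22 CpG pairs in the first class and 6 in the second.

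Further T cell signalling genes were above the reference beside genes of the same list that were not. Lat, the adaptor on which T cell receptor signals converge, gave 12.79, 13.08 and 12.69, and the kinase Zap70 gave 10.81, 12.12 and 11.23. Cd7, an early T and NK cell antigen, gave 12.54, 12.17 and 12.59. Lef1, a transcription factor of T cell development, gave 11.06, 11.43 and 11.83. Cd28, the costimulatory receptor, gave 9.67, 10.17 and 10.56, with replicate 7 lowest. Ptcra, the pre-T-cell receptor alpha chain of immature thymocytes, gave 8.26, 8.32 and 8.24, close above the reference on each array.

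In all, 9 of the 23 measured T cell genes passed on 3 arrays (39.1%, against 38.5% of all genes). On 1 or 2 arrays 5 passed, and 9 passed on none. At this setting the share of the list is close to that of all genes and says nothing particular about T cell genes. The count moves with the setting: without replicate 7, 12 of the 23 passed, beside 7907 of all 19505 genes. The highest signals of the list were those of Cd3g and Cd3e, followed by Lat, Cd7 and Cd3d. The median of the list was 7.89, against 7.06 for all genes. Cd4 was at the reference, at 8.13, 7.97 and 7.58, and the CD8 chains were under it, Cd8a at 6.25, 6.67 and 6.03 and Cd8b1 at 5.90, 5.82 and 5.92. Cd5, Cd6, Cd2 and Thy1, surface antigens of most T cells, were under it on every array, with means of 6.24 ± 0.10, 4.99 ± 0.07, 6.90 ± 0.12 and 5.78 ± 0.41. Cd247, the zeta chain that completes the T cell receptor complex, reached 7.48 ± 0.09, above 97.9% of the chemosensory receptors and under the reference on each array. Zbtb16, the transcription factor PLZF of natural killer T cells, sat at the reference with 7.77, 7.99 and 8.23, as did Bcl11b, which holds T cell identity, with 7.67, 8.08 and 7.87.

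Other lymphocyte genes, chosen after their values were seen, were also high. Cd69, an early activation antigen, gave 14.40, 13.93 and 14.32. Cd96, a receptor of the nectin family on T and NK cells, gave 13.35, 13.26 and 13.21, and Cd160, a receptor of cytotoxic lymphocytes, gave 12.12, 13.20 and 11.98, with replicate 8 highest. Trat1, an adaptor that binds the T cell receptor complex, gave 10.01, 10.75 and 10.49, and Cd40lg, the CD40 ligand of helper T cells, gave 9.49, 9.66 and 9.88. All 8 measured GIMAP genes, small GTPases of lymphocyte survival, were above the reference (100%, against 38.5% of all genes), with means from 9.04 to 13.40. The 22 lymphoid transcription factors described next were also chosen with values in view. Of these, 15 passed on 3 arrays (68.2%, against 38.5% of all genes), 3 on 1 or 2 and 4 on none. A share among genes chosen by their values says nothing about lymphoid factors as a set. Ikzf1 (Ikaros) had a mean of 15.44 ± 0.14, Runx3 14.34 ± 0.17, Nfatc3 13.07 ± 0.24, Bach2 12.64 ± 0.14 and Tox 12.26 ± 0.51. The factors that passed on no array were Bcl6, Prdm1 (Blimp-1), Notch1 and Notch3, with means of 6.99 ± 0.60, 5.67 ± 0.26, 6.06 ± 0.08 and 7.26 ± 0.18. Id2, an inhibitor of E proteins, passed on replicate 8 alone, at 7.38, 8.30 and 7.23. Notch1 drives the T cell fate and gave 5.98, 6.06 and 6.13, whereas Notch2 gave 11.10, 9.54 and 10.98.

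Of 24 genes of NK cells and cytotoxic lymphocytes, 5 were above the reference on 3 arrays (20.8%, against 38.5% of all genes) and 19 on none. Gzma, the granule protease granzyme A, gave 10.25, 13.58 and 11.70, a spread of more than 3 log2 steps with replicate 8 highest. Klrd1, the CD94 chain of NK lectin receptors, gave 12.97, 10.38 and 10.83, with replicate 7 highest. Itga2, the DX5 antigen, was steady at 10.41, 10.17 and 10.36. Klra7, a Ly49 receptor, gave 9.25, 9.31 and 8.61, and Sh2d1b1, an adaptor of SLAM receptors, gave 8.88, 8.97 and 8.85. Ly49 genes are near-identical copies of each other, so the Klra7 signal may include that of its relatives.

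Unlike Itga2 and Klrd1, the NK genes named next were under the reference on every array. Klrk1, the NKG2D receptor, had a mean of 7.15 ± 0.39, nearer to the reference than the rest and above the receptor median of 5.62. Ncr1 (NKp46) gave 4.83, 4.59 and 4.65, and Klrb1c, which encodes NK1.1, gave 6.86, 4.75 and 5.14, with replicate 7 highest and still under the reference. Nkg7 and Prf1 (perforin), components of cytotoxic granules, had means of 4.58 ± 0.32 and 5.32 ± 0.07, and Gzmb, granzyme B, 6.06 ± 0.33. Eomes and Tbx21, the transcription factors of NK cells, had 5.09 ± 0.07 and 4.96 ± 0.08. Of 26 genes for killer cell lectin-like receptors 2 were above the reference (7.69%), and of 8 granzymes 1 (12.5%), against 38.5% of all genes.

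Among 37 granulocyte and monocyte genes, 1 was above the reference on 3 arrays (2.70%, against 38.5% of all genes), 2 on 1 or 2 arrays and 34 on none, with a median of 6.06. The gene that passed was Fcgr3, the low-affinity Fc receptor of myeloid and NK cells, at 12.19, 11.75 and 11.68. Mpo, myeloperoxidase, gave 7.75, 7.65 and 7.43, above 98.5% of the chemosensory receptors and under the reference on each array. Elane and Prtn3, neutrophil elastase and proteinase 3, had 5.86 ± 0.28 and 5.97 ± 0.12, and Ctsg, cathepsin G, 4.85 ± 0.14. Csf1r, the M-CSF receptor, gave 5.21, 5.22 and 5.28, and Csf3r, the G-CSF receptor, 6.21, 6.28 and 6.02.

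The transcription factors of this list were under the reference on every array as well. Gfi1 and Irf8 were the highest of them, at 7.09, 6.67 and 7.34 and 6.91, 6.89 and 6.92. Spi1, which encodes PU.1, gave 5.48, 5.00 and 5.54, and Cebpa, which encodes C/EBP alpha, gave 6.05, 5.92 and 6.22. Itgam, the CD11b chain, gave 6.38, 6.41 and 6.57, Cd14, the lipopolysaccharide co-receptor, 5.73, 5.60 and 5.33, and Lyz2, lysozyme, 6.72, 6.48 and 6.58. The adaptor chains Fcer1g and Tyrobp, which carry the signals of many activating myeloid receptors, were at 6.02, 6.02 and 5.38 and 5.76, 6.15 and 6.37. Fcer1g is the partner of the Fcgr3 receptor in normal cells. Ccr2, a receptor of inflammatory monocytes that lymphocytes also use, gave 8.47, 7.38 and 8.52. It was above the reference on replicates 7 and 9 and below it on 8, so that 2 genes of the list pass without replicate 8. Fcgr1, another Fc receptor, gave 7.84, 7.93 and 7.87, above the reference on replicates 8 and 9. Without replicate 7, 2 genes of the list pass as well. The series title names acute myeloid leukaemia, and of the granulocyte and monocyte genes measured here Fcgr3 alone exceeded the reference on all 3 arrays. Cd68 and Ly6g were not analysed here.

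**Figure D2:**
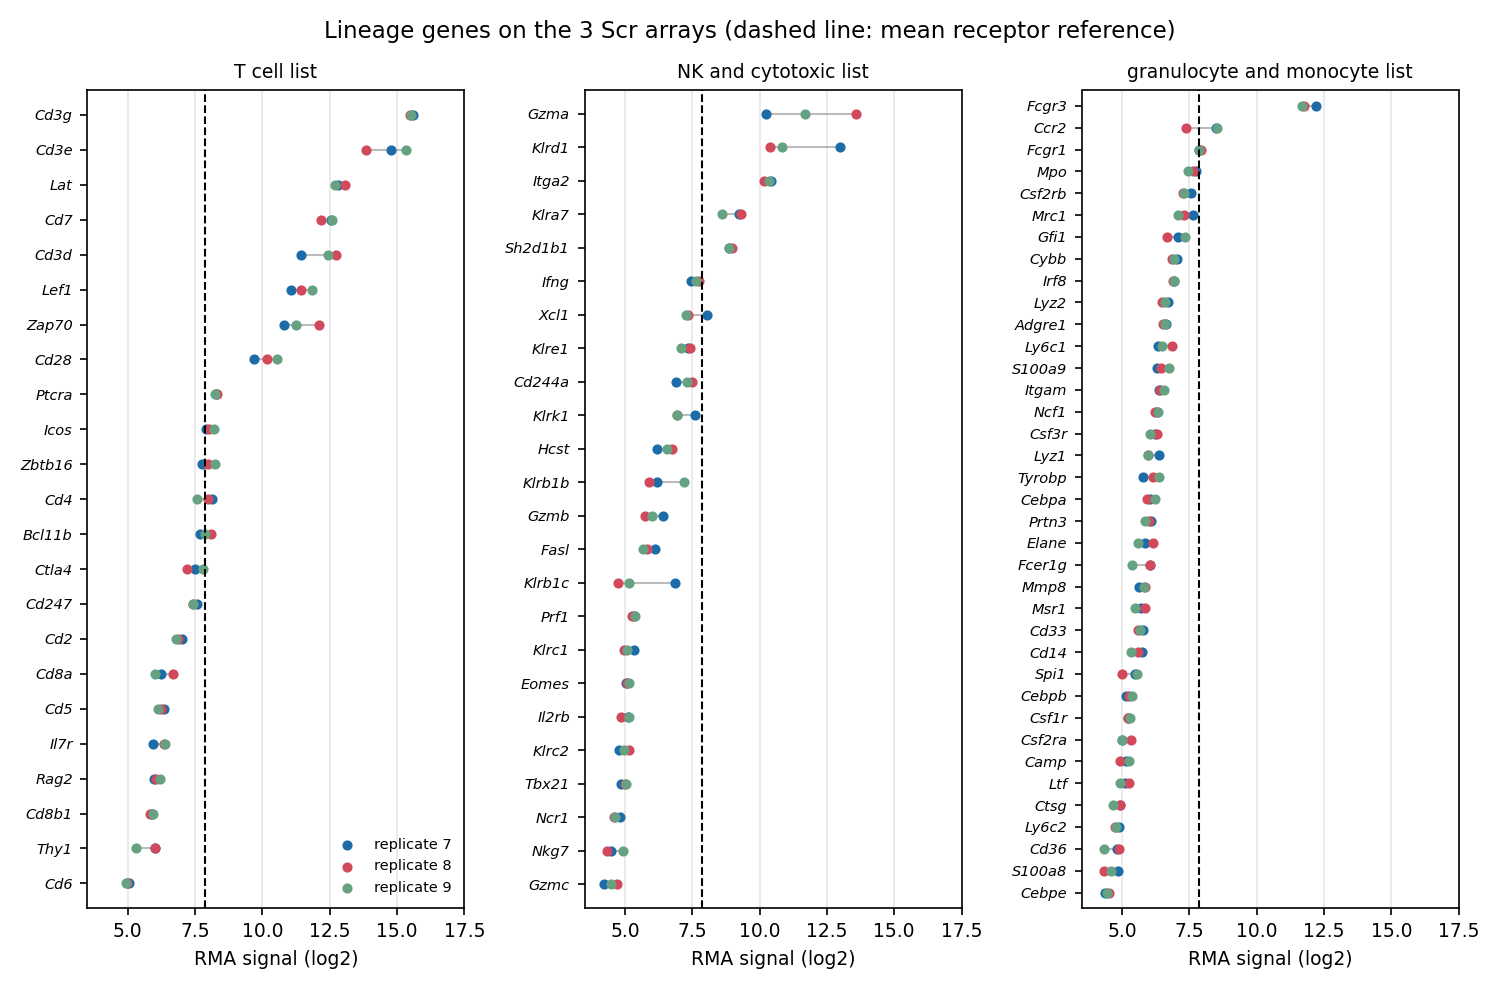
RMA signal (x axis, log2) of each measured member of the T cell, NK and cytotoxic, and granulocyte and monocyte lists (rows), with 1 point per Scr array, a grey line over their range and the mean receptor reference of 7.87 as a dashed line. The CD3 chains lie between 11.45 and 15.59 on single arrays, and Fcgr3 is the only granulocyte or monocyte gene with all 3 points above the line.

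Markers of other lineages gave few signals above the reference. Of 14 B cell genes 1 passed (7.14%, against 38.5% of all genes), Ebf1, a B cell transcription factor, at 9.03, 9.15 and 9.11, while Cd79a, Cd79b, Ms4a1, Pax5 and Cd22 had means from 4.42 to 6.30. Of 15 erythroid, megakaryocyte and mast cell genes 4 passed (26.7%, against 38.5% of all genes). Cpa3, the carboxypeptidase of mast cell granules that some early haematopoietic cells also express, gave 14.98, 15.52 and 15.38, among the highest signals of any marker. The other mast cell and basophil genes, Ms4a2, Fcer1a, Mcpt8, Prss34 and Hdc, had means from 5.55 to 7.53. Gp9 and Itga2b, platelet glycoprotein chains, gave 9.43, 9.28 and 8.83 and 8.90, 8.34 and 8.44. The erythroid and mast cell factor Gata1 gave 8.27, 8.10 and 8.09, close above the reference. Other platelet and erythroid genes of the list, Pf4, Ppbp, Vwf, Klf1 and Alas2, had means from 6.05 to 7.08 and passed on no array. Epor, of the same list, passed on 1 array, at 7.94, 7.63 and 7.74.

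Of 12 dendritic cell genes 4 passed (33.3%, against 38.5% of all genes), Bst2, Batf3, Ccr7 and Clec10a, which is near the share of all genes. Bst2, an interferon-induced membrane protein found on many cells, gave 11.85, 13.70 and 12.34. Batf3, a transcription factor, gave 11.08, 11.86 and 11.08, and Clec10a, a lectin, 9.20, 9.21 and 8.86. The markers Itgax, Zbtb46, Siglech, Xcr1 and Clec9a had means from 4.41 to 7.67 and passed on no array. None of 21 epithelial, stromal and endothelial genes was above the reference on 3 arrays, against 38.5% of all genes. On 1 or 2 arrays 3 of these genes were above it, and 18 were on none. Those 3 were Ocln, a tight junction protein, at 6.97, 8.28 and 7.83, Col1a1, a collagen chain, at 8.28, 7.76 and 7.49, and Pecam1, an endothelial antigen that leukocytes share, at 6.82, 7.85 and 6.93. Epcam gave 5.40, 4.88 and 5.18, Cdh1 (E-cadherin) 6.57, 6.31 and 6.30, Krt18 5.87, 5.64 and 5.70 and Cdh5 (VE-cadherin) 4.50, 4.46 and 4.77. All 47 measured keratins were under the reference on every array, against 55.9% of all genes. Krt8 was among them, at 6.74, 6.04 and 6.84.

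Of 24 stem cell and leukaemia genes 7 were above the reference (29.2%, against 38.5% of all genes) and 17 on no array. Myc, a driver of growth in many leukaemias, gave 13.85, 13.23 and 13.65, and Myb, a regulator of progenitors and thymocytes, gave 9.91, 11.36 and 10.99, lowest on replicate 7. Msi2, an RNA-binding protein of stem cells, had a mean of 12.35 ± 0.28, Pbx3, a partner of Hox proteins, 11.20 ± 0.27, Bmi1, a polycomb subunit, 10.85 ± 0.22, and Runx1 10.18 ± 0.47. Cd47, which inhibits phagocytosis, gave 11.17, 12.10 and 10.74. Kit, the stem cell factor receptor, gave 5.55, 5.26 and 5.77, around the median of the chemosensory receptors. Flt3, Cd34, Prom1 and Procr, further progenitor antigens, had means of 4.78 ± 0.16, 6.53 ± 0.06, 5.99 ± 0.23 and 5.09 ± 0.16. Meis1, which cooperates with Hox proteins in myeloid leukaemia, gave 6.54, 6.48 and 6.79, and Gata2 gave 6.03, 5.98 and 5.74. Of 33 Hox genes 1 passed, Hoxc6, at 8.38, 8.12 and 8.39, against 38.5% of all genes. Hoxa9 and Hoxa7 were not analysed here.

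Zeb1, the zinc-finger repressor that the study silenced in other samples, was above the reference at 10.52, 10.29 and 10.56 (mean 10.46 ± 0.15). Its corepressor Ctbp1 gave 13.64, 13.17 and 13.41, while Ctbp2 was under the reference at 6.46, 6.89 and 6.73. Vim, the intermediate filament vimentin, gave 10.58, 10.67 and 10.32, and the E protein gene Tcf3 gave 8.46, 7.97 and 8.69. The other factors of epithelial-mesenchymal transition that were measured, Snai1, Snai2, Snai3, Twist1 and Twist2, had means from 4.60 to 7.27 and passed on no array. Neither Cdh2 (N-cadherin) nor Fn1 (fibronectin), mesenchymal genes, passed on any array, at 5.79 ± 0.23 and 4.77 ± 0.06.

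Of 33 cytokine receptor chains, 13 were above the reference on 3 arrays (39.4%, against 38.5% of all genes; 14 without replicate 8). Ifnar2, a chain of the type I interferon receptor, gave 13.61, 13.82 and 13.07, and Il6st (gp130), the shared chain of the interleukin-6 family, 12.82, 13.47 and 13.30. Il6ra, which with gp130 binds interleukin-6, gave 10.18, 8.97 and 9.23, highest on replicate 7. Il4ra gave 11.49, 10.71 and 11.97, and Il17ra, the receptor for the Th17 product interleukin-17A, 10.46, 9.80 and 11.07. Il18r1, a receptor of Th1 and NK cells, gave 10.00, 9.67 and 9.72, and Il27ra 9.27, 8.79 and 9.89. Tgfbr1, the type I receptor for TGF-beta, gave 8.99, 8.26 and 9.10, while Tgfbr2, the type II chain, was under the reference at 7.28, 7.27 and 7.65. The interleukin-2 and interleukin-15 chain Il2rb was at 5.10, 4.87 and 5.17 and Il7r at 5.93, 6.35 and 6.38, near the floor. Csf2ra and Csf2rb, the chains of the GM-CSF receptor, were under the reference at 5.11 ± 0.20 and 7.36 ± 0.17.

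Among 17 chemokine receptors 3 were above the reference (17.6%, against 38.5% of all genes; 5 without replicate 8, which added Ccr2 and Cx3cr1). Ccr8, a receptor of regulatory and Th2 cells, gave 14.68, 13.52 and 14.71, lowest on replicate 8. Cxcr4, which retains cells in bone marrow through Cxcl12, gave 9.16, 11.09 and 10.37, highest on replicate 8. Ccr7, the lymph node homing receptor, gave 9.97, 9.35 and 9.55. The receptors Cxcr1, Cxcr2, Ccr1 and Ccr3 of granulocytes and monocytes passed on no array, with means of 5.97 ± 0.19, 6.30 ± 0.04, 4.58 ± 0.30 and 6.09 ± 0.16.

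Leukocyte adhesion genes stood on both sides of the reference. Ptprc, the leukocyte antigen CD45, gave 14.92, 14.48 and 15.20, and the tetraspanins Cd53 and Cd37 gave 14.67, 14.92 and 14.84 and 12.92, 12.78 and 13.38. Itgb1, the beta-1 integrin chain, gave 12.42, 12.57 and 12.76, with the alpha chains Itga6 at 10.57, 10.57 and 10.78 and Itgav at 10.87, 10.32 and 10.67. Selplg, the selectin ligand PSGL-1, gave 11.26, 11.89 and 11.70. Itgal (LFA-1), Itga4 (VLA-4) and Itga5 passed on no array, with means of 7.03 ± 0.22, 6.50 ± 0.22 and 4.59 ± 0.10. Cd48, a SLAM-family ligand carried by most leukocytes, was under the reference on each array, at 7.53, 7.32 and 6.83, and Cd44, the hyaluronan receptor, was at 7.16, 6.85 and 7.17. In all 10 of 28 adhesion genes passed (35.7%, against 38.5% of all genes), a share near the background. All 5 genes with a Slamf symbol were under the reference on every array, against 55.9% of all genes. That count leaves out SLAM-family receptors with other symbols. Of these, Ly9 was above the reference on each array, at 11.56, 11.18 and 11.77. Cd244a was under it on each, at 6.91, 7.50 and 7.29.

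Innate sensors were nearly all at the floor. Of 23 innate receptors 2 passed (8.70%, against 38.5% of all genes), Fcgr3 and Ddx58, the RNA sensor RIG-I, at 8.31, 8.46 and 8.79. None of the 12 Toll-like receptor genes was above the reference on any array, with means from 4.88 to 6.23. Of all genes, 55.9% were above it on none. Fcgr2b and Fcgr4, the relatives of Fcgr3, gave 5.28, 5.36 and 4.71 and 4.99, 4.91 and 4.50, and Fcgr1 sat at the reference with 7.84, 7.93 and 7.87. Clec4e and Trem1, activating receptors of myeloid cells, had means of 6.58 ± 0.15 and 6.36 ± 0.22.

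Of 20 MHC presentation genes 11 were above the reference (55.0%, against 38.5% of all genes), all of them in class I presentation or in the folding steps that serve it. H2-K1 and H2-D1, classical class I heavy chains, gave 15.34, 15.39 and 15.45 and 13.63, 14.13 and 14.06, and B2m, their light chain, 13.94, 14.47 and 14.18. The immunoproteasome subunits Psmb8 and Psmb9 gave 14.10, 14.98 and 14.28 and 11.58, 13.41 and 12.61, both highest on replicate 8, and the peptide transporter chain Tap1 gave 11.08, 10.95 and 12.14. Class I heavy chain genes resemble each other, so these probe sets may share signal. The class II genes H2-Aa, H2-Ab1, H2-Eb1, H2-DMa and H2-DMb1 had means from 5.18 to 7.23 and passed on no array. Ciita, the class II master regulator, gave 7.16, 7.21 and 7.20, and Cd1d1, which presents lipids to natural killer T cells, 7.47, 7.22 and 7.19.

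Of 23 ligands and receptors of immune control, 4 passed (17.4%, against 38.5% of all genes). Lgals1, galectin-1, which dampens T cell responses, gave 16.14, 16.42 and 16.23, and Lgals9, galectin-9, 9.36, 9.64 and 9.25. Ulbp1, a ligand of the activating NK receptor NKG2D, gave 12.89, 12.78 and 12.98. The fourth was Cd47. Cd274, which encodes PD-L1, sat at the reference with 7.57, 7.87 and 7.65, and Pdcd1lg2 (PD-L2) was under it at 6.77, 7.23 and 6.98. Pdcd1, Lag3, Havcr2, Tigit and Ctla4, checkpoint receptors of T cells, had means from 5.16 to 7.50. The costimulatory ligands Cd80 and Cd86 were at 6.34, 6.52 and 6.75 and 6.14, 5.93 and 6.52.

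Few secreted factors were above the reference: 5 of 42 interleukins and growth factors (11.9%, against 38.5% of all genes) and 2 of 32 chemokines (6.25%). Mif, macrophage migration inhibitory factor, gave 15.76, 15.95 and 15.75, Ltb, lymphotoxin beta, 14.56, 14.81 and 14.75, and Vegfa 14.27, 14.34 and 14.02. Tgfb1, a cytokine that suppresses T cells and with interleukin-6 directs Th17 differentiation, gave 12.72, 12.94 and 12.88, steady across the arrays. Il16, a chemoattractant for CD4 cells, gave 10.44, 10.26 and 10.59. Of the other Th17-driving cytokines, Il6 gave 4.95, 5.55 and 5.13, Il23a 5.43, 5.17 and 5.18 and Il1b 7.24, 6.76 and 7.06, all under the reference.

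Il15 and Tnf varied around the reference with replicate 8 highest. Il15, a survival factor of NK cells and memory T cells, gave 7.64, 9.41 and 8.31, and Tnf, an inflammatory cytokine, gave 7.87, 8.82 and 7.59. The T cell cytokines Il2, Il4, Il10, Il17a, Il17f, Il21, Il22 and Ifng had means from 4.96 to 7.61 and passed on no array, and Csf1, Csf2 and Csf3 had means from 5.12 to 6.43. The chemokines that passed were Ccl25, at 8.82, 8.89 and 8.79, and Ccl6, at 8.61, 8.07 and 8.44. Cxcl10 and Ccl5, inflammatory chemokines, were at 4.78, 4.55 and 4.73 and 4.38, 4.16 and 4.46.

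**Figure D3:**
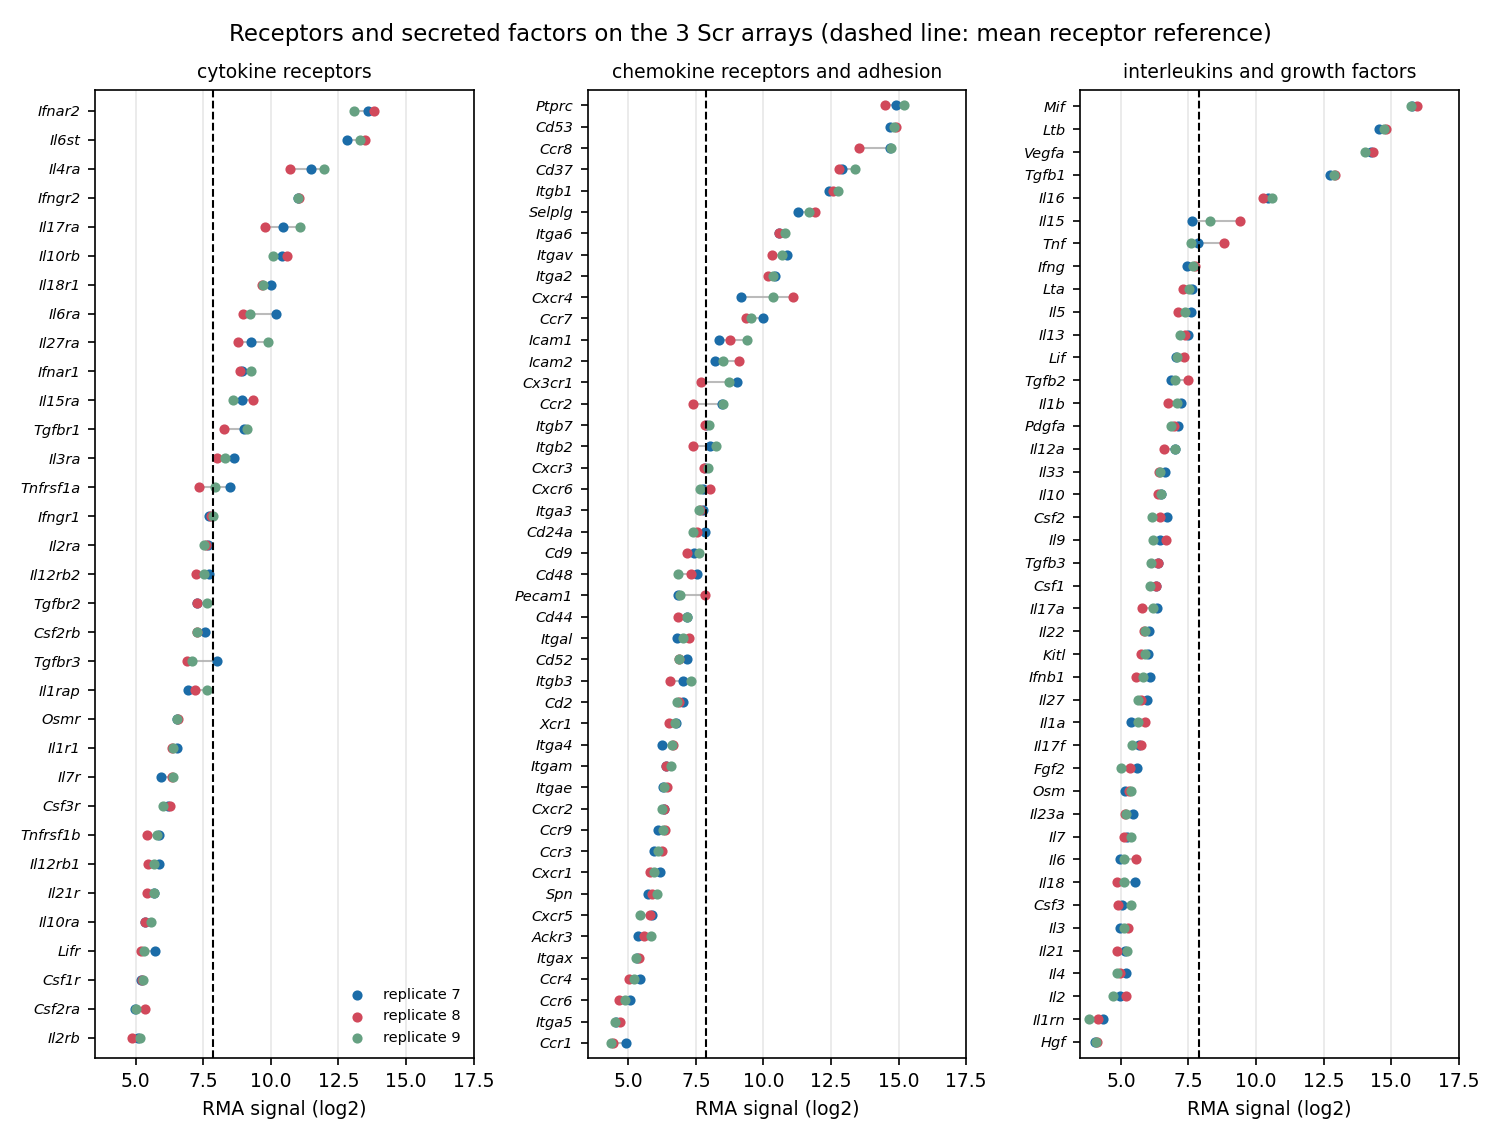
RMA signal (x axis, log2) of cytokine receptors, of chemokine receptors with adhesion genes, and of interleukins with growth factors (rows), with 1 point per Scr array, a grey line over their range and the mean receptor reference of 7.87 as a dashed line. Most members sit at or left of the line. Mif, Ltb, Vegfa and Tgfb1 lie highest in the panel of secreted factors, with Il16 between them and the other members.

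Arg1 was high in Scr cells and differed between the arrays. Arg1, arginase 1, which removes arginine from the surroundings of T cells, gave 10.65, 12.15 and 11.25 (mean 11.35 ± 0.76), with replicate 8 highest. Arg2, the mitochondrial arginase, was near the floor at 5.45, 5.55 and 5.50, and the nitric oxide synthases Nos1, Nos2 and Nos3 had means from 5.06 to 5.35. Genes of the route from arginine to ornithine and polyamines were above the reference: the arginine transporter Slc7a1 gave 13.61, 12.37 and 13.38, Odc1, ornithine decarboxylase, 13.41, 12.28 and 12.98, Srm, spermidine synthase, 15.74, 15.46 and 15.67, and Oat, ornithine aminotransferase, 12.40, 12.80 and 12.38. The second arginine transporter, Slc7a2, had the lowest signal of the list, 4.16, 3.95 and 3.85. Of 17 genes in this list 9 passed (52.9%, against 38.5% of all genes).

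Other routes that limit T cells were mixed. Ido1, Ido2, Tdo2, Kmo and Kynu, which break down tryptophan, had means from 4.34 to 6.09 and passed on no array. Nt5e (CD73) and Entpd1 (CD39), which make extracellular adenosine, were under the reference at 6.12, 6.02 and 6.14 and 6.52, 6.18 and 6.35. Ada, adenosine deaminase, gave 11.12, 11.59 and 11.53, and Pnp, purine nucleoside phosphorylase, 14.95, 15.14 and 15.13. The adenosine receptors were not analysed here.

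Genes of glycolysis and biosynthesis were mostly above the reference. Of 22 glycolysis genes 17 passed (77.3%, against 38.5% of all genes). Slc2a1, the glucose transporter GLUT1, gave 16.87, 17.15 and 16.66 and ranked among the 30 highest genes of the array. Isoforms of an enzyme differed in signal: Hk2 gave 12.55, 10.83 and 12.41 and Hk3 9.40, 9.55 and 8.89, while Hk1 was just under the reference at 7.67, 7.73 and 7.64. Ldha gave 14.54, 14.54 and 14.32 and Ldhb 5.58, 5.69 and 5.53, and Aldoa gave 15.07, 15.00 and 15.26 and Aldoc 6.67, 6.54 and 6.42. Pkm, pyruvate kinase, gave 15.93, 14.69 and 15.98, lowest on replicate 8, as were Hk2, Pfkp and Slc2a3. The list as a whole had a median of 12.39, 11.07 and 12.37 on the 3 arrays.

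All 22 genes for amino acid uptake, one-carbon and nucleotide synthesis passed on at least 2 arrays and 21 on 3 (95.5%, against 38.5% of all genes; 22 without replicate 8). Asns, asparagine synthetase, gave 15.92, 15.61 and 15.63, Shmt2, mitochondrial serine hydroxymethyltransferase, 15.86, 15.90 and 16.01, and Mthfd2, its folate partner, 14.58, 14.35 and 14.50. The amino acid carriers Slc1a5, Slc38a1, Slc38a2, Slc3a2, Slc7a5 and Slc7a11 had means from 10.17 to 15.37. Phgdh, the first enzyme of serine synthesis, gave 14.09, 12.94 and 14.05. Impdh1, an enzyme of guanine nucleotide synthesis, was the exception, at 8.95, 7.15 and 8.44.

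Of 21 lipid and sterol genes 10 passed (47.6%, against 38.5% of all genes), among them the fatty acid synthesis genes Acly, at 16.22, 15.91 and 16.20, and Fasn, at 15.78, 15.11 and 15.48, and the sterol genes Srebf2, Hmgcs1 and Sqle, with means from 11.62 to 14.02. The fatty acid oxidation genes Cpt1a and Acadm and the lipase gene Pnpla2 passed as well, at 10.47 ± 0.66, 9.85 ± 0.27 and 12.10 ± 0.42. Scd1, a desaturase of fatty acid synthesis, was under the reference at 7.08, 7.19 and 7.25, and the fatty acid uptake gene Cd36 at 4.82, 4.89 and 4.34. Plin2, which coats lipid droplets, was around the reference at 7.40, 8.25 and 8.51. The eicosanoid enzymes Alox5, Alox5ap, Alox12, Ptgs2 and Ltc4s, typical of myeloid cells, had means from 5.56 to 6.72. All 23 respiratory chain and Krebs cycle genes passed (100%, against 38.5% of all genes). Atp5b was highest at 16.76, 16.68 and 16.73 and Uqcrc2 lowest at 8.96, 9.59 and 9.20. Sdha, a succinate dehydrogenase subunit, was more than 2 log2 steps lower on replicate 8, at 10.67, 8.45 and 10.94.

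**Figure D4:**
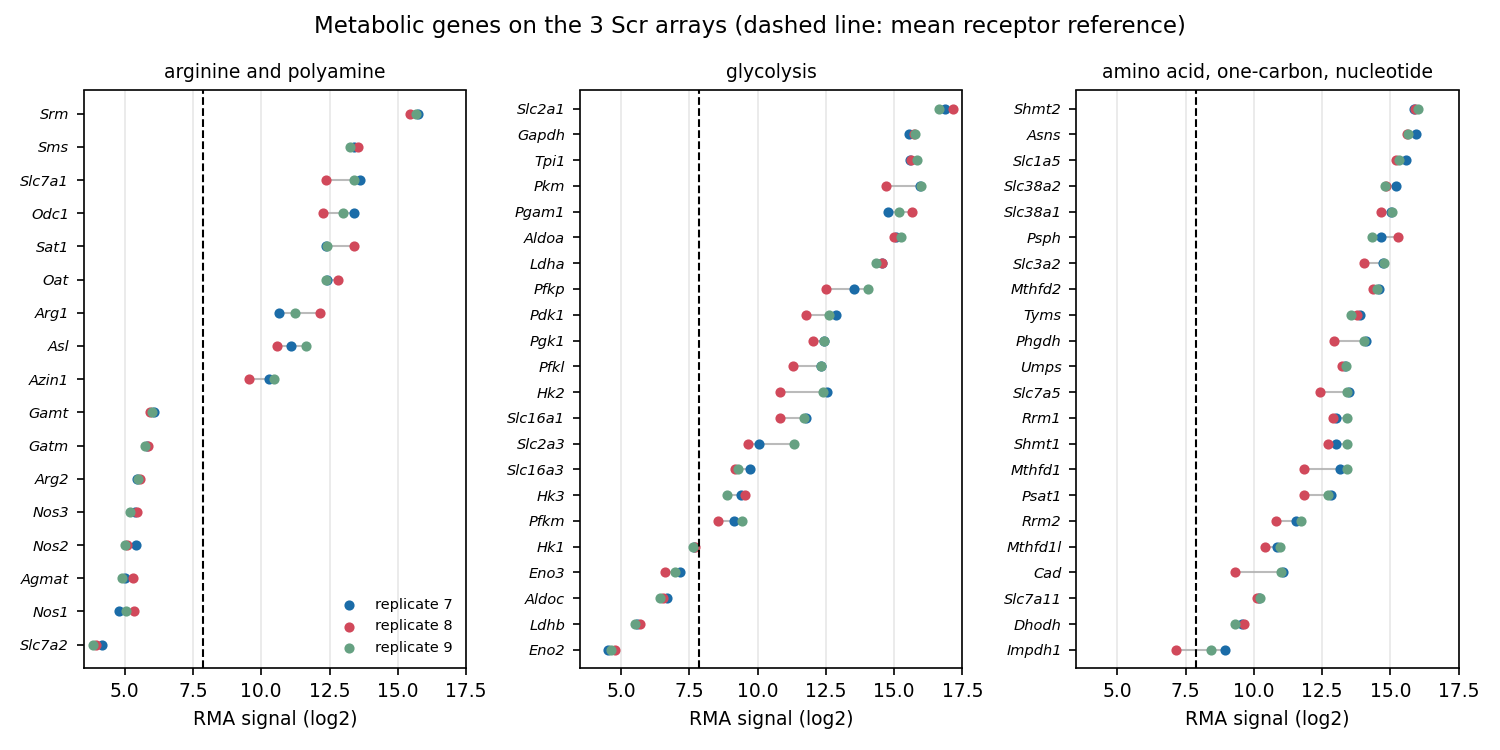
RMA signal (x axis, log2) of genes of arginine and polyamine metabolism, of glycolysis, and of amino acid, one-carbon and nucleotide metabolism (rows), with 1 point per Scr array, a grey line over their range and the mean receptor reference of 7.87 as a dashed line. Isoforms of an enzyme fall on both sides of the line, as with Arg1 and Arg2 or Ldha and Ldhb.

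Most genes of the cell division cycle were above the reference. Of 23 genes 20 were above the reference (87.0%, against 38.5% of all genes). Mki67 gave 14.84, 15.29 and 15.16, Pcna, the replication clamp, 15.79, 15.60 and 15.54, and Top2a, topoisomerase II, 12.94, 14.35 and 13.87, lowest on replicate 7. The D-type cyclin genes Ccnd3 and Ccnd2 gave 16.38, 15.32 and 16.35 and 11.75, 12.11 and 11.81, and their kinase Cdk4 15.85, 15.60 and 15.79. Cdk6, the other D-cyclin kinase, was under the reference at 6.35, 5.96 and 6.81. E2f1 and Rb1, at the restriction point, were around the reference at 7.98, 8.15 and 7.98 and 7.75, 8.93 and 8.33.

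Cell cycle inhibitors did not share 1 level. Cdkn2a, which encodes the tumour suppressors p16 and p19 from 1 locus that is often deleted in leukaemia lines, gave 11.00, 13.46 and 11.86, with replicate 8 highest, and its neighbour Cdkn2b gave 9.09, 9.26 and 9.20. The array does not tell the transcripts of Cdkn2a apart in these values. Cdkn1a, the p21 gene induced by p53, was near the floor at 5.16, 5.54 and 5.31, as were Fas, at 6.28, 6.37 and 6.31, and Pmaip1 (Noxa), at 6.31, 5.77 and 5.56. Mdm2, another p53 target, gave 9.57, 9.89 and 9.79. Of the survival genes Bcl2l1 (Bcl-xL) gave 14.73, 13.80 and 14.71, Mcl1 10.09, 9.61 and 9.85 and Bcl2 9.97, 9.21 and 8.95. Npm1 gave 15.60, 15.57 and 15.36, and Ezh2, the polycomb methyltransferase, 13.31, 14.34 and 13.57. In all 14 of 22 genes passed (63.6%, against 38.5% of all genes).

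The Y-linked genes Uty, Kdm5d and Eif2s3y were at the bottom of the array, with means from 3.71 to 4.37, while their X-linked relatives Kdm6a, Kdm5c and Eif2s3x gave 11.92, 12.43 and 12.16, 11.06, 9.77 and 11.25 and 13.11, 12.39 and 13.04. Among the 30 highest named genes 18 encode cytosolic ribosomal proteins, led by Rpl41 at 17.05, 17.41 and 17.23. The other 12 were the respiratory chain genes Cox7c, Cox5b, Atp5b and Atp5md, the translation genes Pabpc1, Eif2s2 and Eef1a1, the histones H2ac13 and H2ax, and Slc2a1, Actb and Sod1. Their means lie between 16.71 and 17.23.

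**Figure D5:**
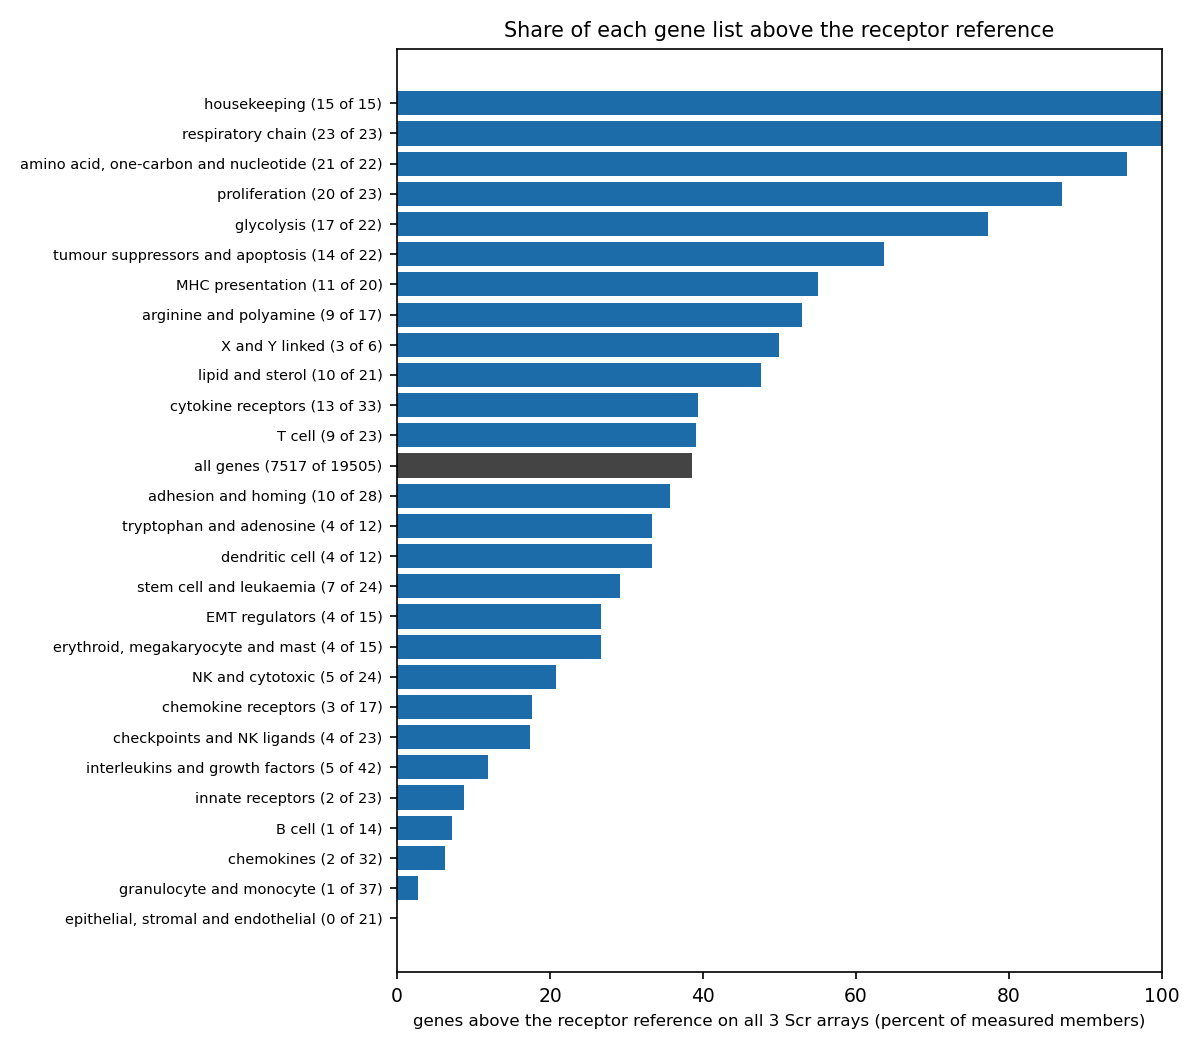
Share of the measured members of each gene list above the receptor reference on all 3 Scr arrays (x axis, percent; the bar starts at 0), with the share of all genes in dark grey and counts beside each name. Biosynthesis, respiratory chain and proliferation lists lie above the 38.5% of all genes, and granulocyte and monocyte, chemokine and non-haematopoietic lists lie far below it.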

How the data were processed

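The deposited values are RMA signals from the Transcriptome Analysis Console, per the submitters' processing notes, 1 column per array; tool versions and the array's genome build are not given in the sources used here. The authors' signals were deposited on another scale than log2: each cell is a linear signal whose decimal point is missing. The point was put where log2 becomes a multiple of 0.01 (tolerance 1e-06 of such a step), which gave exactly 1 place in each of 66618 cells of the 3 arrays. Of 22206 probe sets, 19572 carried 1 symbol and 2634 none; probe sets of a gene were averaged, which left 19505 genes. Symbols were updated through gene identifiers with RefSeq's GRCm38.p6 table, and all 19572 matched. No further normalization was applied. The receptor reference is the percentile 99 of 1460 chemosensory receptors on each array. The gene lists were chosen with earlier results of these data known. Named genes are the measured markers, Zeb1, the 30 highest and up to 15 widest-ranging genes, and up to 8 highest and 8 lowest members of each list. Members outside that rule (among them Notch2, Trat1 and the other added lymphocyte genes) were chosen after their values were seen. No test was run, since a single group was described. Python 3.11.15, numpy 2.4.6 and pandas 2.3.3 were used, and recovery of the decimal point was tested on simulated data.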

Additional observations from a re-analysis of the deposited data

How the results depend on the processing

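With percentile 95 of the receptors as the reference, 8947 of all 19505 genes passed, and more lineage genes did. T cell genes gave 15 of 23, NK and cytotoxic genes 8 of 24, and granulocyte and monocyte genes 6 of 37. B cell genes gave 3 of 14 and epithelial, stromal and endothelial genes 1 of 21. Lineage markers in all gave 52 in place of 31. Keratin-associated and beta-defensin genes (89 genes) gave a higher reference, 10.28, 10.37 and 9.96, which left 4429 genes, 17 lineage markers, 983 wide-ranging genes, 2 dendritic cell genes, 1 NK and cytotoxic gene, 1 erythroid, megakaryocyte or mast cell gene and 0 B cell genes. Under that reference 7 T cell genes passed, Cd3d, Cd3e, Cd3g, Cd7, Lat, Lef1 and Zap70. A lower reference lets more genes pass and a higher one fewer, so these counts depend on the reference chosen. The higher reference came from 89 genes, against 1460 receptors in the main one. Its height may rest on a few high signals among those 89 genes, which was not tested. With the mean of the arrays set against the mean reference, 3 granulocyte and monocyte genes and 12 T cell genes passed, beside 8088 genes in all. Leaving out 1 array at a time gave 7531 to 7907 genes in all and 9 to 12 T cell genes, the most without replicate 7. It gave 1 to 2 granulocyte and monocyte genes and 0 to 1 epithelial, stromal or endothelial genes. Wide-ranging genes numbered 135 to 1182, the fewest without replicate 8. Of the 72 named levels under 6 alternatives each, the widest shift was 0.87 on the log2 scale (Gzma without replicate 8); the mean of 3 arrays can move little when 1 is left out, so these shifts say nothing about stability. No paired analysis was possible because 1 group was described and no number is shared with another group. Signals near the floor cannot tell low transcription from none.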
